A study of Mus musculus with 14 samples.

Results

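Transcript levels were compared between 2 sets of Zp3-Cre-negative mouse oocytes, 3 samples that had received a miR-15a mimic and 4 samples of a first set whose labels name no mimic. These 7 arrays, chosen by the Cre and mimic labels, are 7 of the 14 Illumina BeadChips of the series. The other 7 arrays are the Cre-positive oocytes of the same 2 sets. All oocytes came from mice that carry human AGO2 with a myc and a GFP tag at Rosa26, behind a stop cassette flanked by loxP sites. In Cre-negative oocytes nothing removes the stop. In Cre-positive oocytes Cre is driven by the oocyte promoter Zp3.

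The mice received PMSG, a gonadotropin that drives follicle growth, at a dose of 5 units and 48 h ahead of the injection. Oocytes were taken at the germinal vesicle stage, when the cell is arrested in prophase of meiosis I. Collection and overnight culture were in medium with milrinone at 2 µM, an inhibitor of phosphodiesterase 3 that holds the arrest. The mimic, a synthetic miR-15a duplex, was injected at 2 µM in the mimic set. The labels say that oocytes were injected and do not say what the first set received. They give neither the animals nor the number of oocytes behind a sample, nor the ages of the mice, so the spread between replicates may be technical.

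Each set was deposited as its own signal table, so mimic, table and whatever else separated the sets cannot be told apart. What follows describes levels and ranks after both sets were normalized together, and carries no test of the mimic. In such bulk RNA, fewer cells of a type and less of a transcript per cell cannot be told apart either.

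MicroRNAs guide Argonaute proteins to messenger RNAs, mostly through pairing of the seed, bases 2 to 8 of the microRNA, with sites in the 3′ untranslated region. The loaded complex then represses translation and recruits the deadenylases that destabilise the message. Mouse oocytes are known for weak microRNA activity: loss of Dgcr8, which is needed to make microRNAs, has little effect on them, whereas endogenous siRNAs made by Dicer are essential. The fully grown oocyte is also largely silent in transcription, so its RNA levels follow stored messages and their decay.

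The mimic is of miR-15a, which belongs to a family that shares the seed AGCAGCA. In mouse, RefSeq (GRCm38.p6) places the mature strand at chr14:61632075-61632096 on the minus strand, next to miR-16-1 and inside the noncoding host gene Dleu2. Of 1679 mature entries searched, 10 names from 11 loci carry these 7 bases at positions 2 to 8. The best-known relatives are shown here because they carry the same seed. The sequences run 5′ to 3′, with the seed in capitals.

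mmu-miR-15a-5p: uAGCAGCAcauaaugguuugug

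mmu-miR-15b-5p: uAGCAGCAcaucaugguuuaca

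mmu-miR-16-5p: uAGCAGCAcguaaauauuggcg

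mmu-miR-195a-5p: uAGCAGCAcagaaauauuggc

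mmu-miR-322-5p: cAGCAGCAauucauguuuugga

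mmu-miR-497a-5p: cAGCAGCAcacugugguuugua

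Outside the seed these strands differ. Counted position by position from the 5′ end, miR-15b-5p has 18 bases in common with the 22 of miR-15a-5p, miR-497a-5p has 17, miR-16-5p has 16, and miR-195a-5p and miR-322-5p have 15 each. The other names with this seed were miR-195b, miR-6342, miR-6353 and miR-6419. Seed sites in the messages were not searched, since no transcript sequences were used here.

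The array signal differed between the sets before normalization. Mean raw intensity was 137 to 144 units per array in the first set and 372 to 377 in the mimic set, while 13314 to 13619 and 13483 to 13715 probes were detected, out of 25697. Relative to the array median, the 95th percentile of raw signal lay 4.76 to 5.09 times higher in the first set and 8.96 to 9.63 times higher in the mimic set. A probe was kept when its detection p-value was under 0.05 on all 7 arrays, which left 11303 probes, of which 10618 carried 1 gene symbol. Each gene was represented by its brightest such probe, giving 7616 genes. Outside these, 142 of all 25697 probes (0.553%) were detected on every mimic-set array and no first-set array, and 79 (0.307%) the other way round. All levels are log2 signal after background correction and joint quantile normalization, and differences are mimic set minus first set on that scale.

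The cells carried the oocyte's own transcripts in both sets. All 9 oocyte markers on the array, among them the zona pellucida genes Zp1, Zp2 and Zp3 and the growth factors Gdf9 and Bmp15, were detected on all 7 arrays. Their summed signal was 12563 to 14105 in the first set and 12375 to 13026 in the mimic set, on the linear scale. The sum hides single markers whose arrays did not overlap between sets. Npm2, Gdf9, Zp1 and Zp3 were lower in the mimic set (-2.28, -0.97, -0.43 and -0.41), and Nlrp5 and Zp2 higher (1.33 and 0.72). Of 9 granulosa and cumulus markers 2 were detected on all 7 arrays, Kitl and Nr5a2, while Inha and Fst were on none. The summed signal was 362 to 391 and 371 to 389. Esr2 and Bmpr1b, of the longer granulosa list described below, were not in this sum. Of 6 theca and stroma markers only Acta2 was detected on all 7 arrays, and of 5 blood and immune markers only Laptm5. Their sums were 152 to 163 and 155 to 166 for theca and stroma, and 235 to 316 and 256 to 293 for blood. The collagen genes Col1a1, Col1a2 and Col3a1, and Hba-a1 of haemoglobin, were detected on none.

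Ago2, the slicing Argonaute that the transgene encodes in its human form, did not separate the 2 Cre-negative sets. Its 1 probe read 5.48, 5.51, 5.67 and 5.08 in the first set and 5.24, 5.49 and 5.37 in the mimic set. The means were 5.43 ± 0.251 (SD, n = 4) and 5.37 ± 0.124 (SD, n = 3), and the arrays overlapped. Whether this mouse probe binds the human transcript was not tested.

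Across genes the 2 sets were alike in order and separate in detail. Pearson correlations of log2 signal over the 7616 genes were 0.983 to 0.987 within the first set (6 pairs), 0.991 to 0.992 within the mimic set (3 pairs) and 0.946 to 0.961 across sets (12 pairs). Genes are not independent replicates, and these values describe the arrays. The median SD of a gene was 0.149 within the first set and 0.106 within the mimic set, and the median size of the difference between sets was 0.27. For 5971 genes (78.4%) the difference was under 0.5. Mean percentile ranks had a Spearman correlation of 0.959 between sets, and the median gene moved by 4.76 percentile points.

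Nonetheless, replicates within a set were tight enough that 3728 genes (49.0%) did not overlap between sets. Of these, 1784 were higher in the mimic set (23.4% of genes) and 1944 were lower (25.5%), which is the background for every list below. A gene was called set apart when the arrays did not overlap and the mean difference was 1 or more, that is, at least 2-fold. By this rule 37 genes (0.486%) were higher in the mimic set and 131 (1.72%) were lower. No gene with a difference of 1 or more overlapped between sets. The 168 genes set apart overlapped neither in log2 signal nor in rank within the array.

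**Figure D1:**
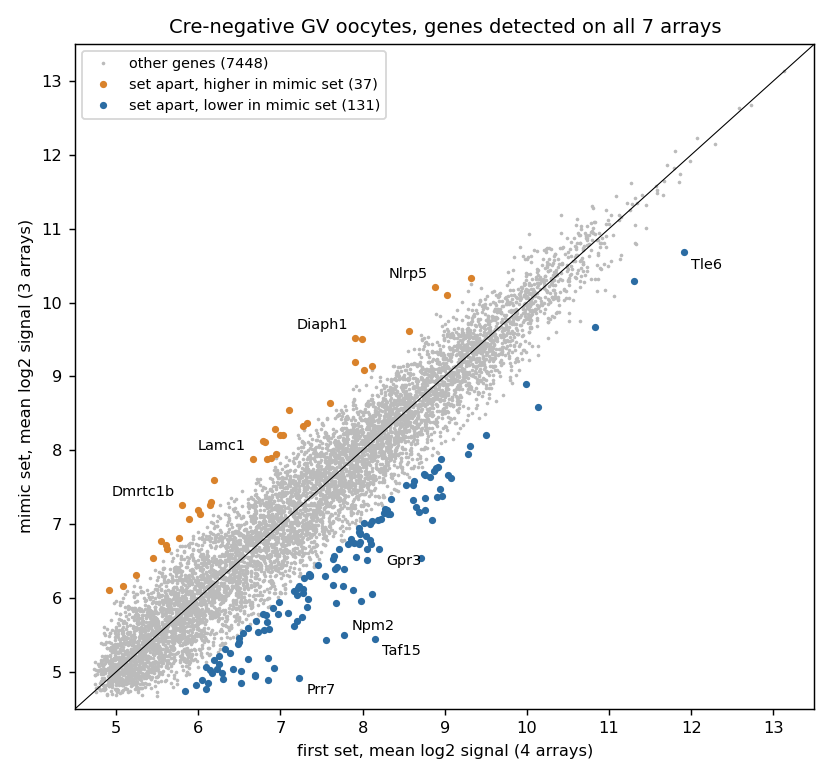
Mean log2 signal of each of the 7616 genes in the first set (x axis, 4 arrays) and in the mimic set (y axis, 3 arrays), with the line of equal signal. Orange points are the 37 genes set apart and higher in the mimic set, blue points the 131 set apart and lower, and grey points the other genes.

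The split of the set-apart genes depended on how the arrays were scaled. Higher genes made up 22.0% of them here, 33.2% with a smaller background offset, 37.5% by the authors' deposited normalized values centred on each array's median, and 99.6% with scaling to the median in place of quantiles. The last share follows a shift of all genes, since median scaling moved the median difference by 0.98 to the mimic set's side. With that shift taken out the share was 16.9%. By rank within the array, with non-overlap and 10 percentile points as the rule, 746 genes were higher (9.8%) and 725 lower (9.52%). The background shifts with the scaling too. By the deposited values centred on each array, 29.2% of genes were higher and 42.6% lower without overlap, and counts by those values below are to be read against these shares. Directions below are relative to each array's own distribution.

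The gene with the greatest difference was Taf15, which encodes an RNA-binding protein of the FET family that also associates with TFIID. Its log2 signal was 8.06, 8.0, 8.28 and 8.26 in the first set and 5.12, 5.67 and 5.55 in the mimic set. The means were 8.15 ± 0.141 (SD, n = 4) and 5.44 ± 0.289 (SD, n = 3), a 6.52-fold lower signal in the mimic set. Its percentile rank within the array was 65.1 to 70.9 in the first set and 6.10 to 17.3 in the mimic set. Its size moved with the background step, from -1.55 without background correction to -3.35 with a smaller offset, in the same direction.

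Npm2, the maternal histone chaperone nucleoplasmin, which acts on chromatin in the oocyte and after fertilisation, was 4.86-fold lower in the mimic set. It read 7.54, 8.09, 7.66 and 7.82 in the first set and 5.32, 5.70 and 5.46 in the mimic set (7.78 ± 0.235, SD, n = 4, and 5.49 ± 0.194, SD, n = 3). Prr7, which encodes a proline-rich membrane adaptor, read 7.16, 7.25, 7.33 and 7.18 against 4.97, 5.02 and 4.78, a 4.95-fold difference. Neither gene overlapped between sets, and the mimic-set signal of Prr7 lay at the level of probes just inside the detection threshold. Those probes, with a highest detection p of 0.04 to under 0.05, had a median log2 signal of 5.00 (201 probes), against 4.95 for the 110 probes just outside it. The log2 scale understates a fold that ends near this level.

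The other genes among the 12 lowest served several functions. Ppp3r1, the regulatory B subunit of calcineurin, differed by -2.17, from 8.41 to 8.85 in the first set to 6.49 to 6.59 in the mimic set. Mageh1, of the MAGE family, stood at -2.12, Hsd3b2, a 3-beta-hydroxysteroid dehydrogenase with close paralogs, at -2.05 and Atp6v0a1, a subunit of the vacuolar proton pump, at -2.02. The ESCRT-III subunit Chmp4b stood at -1.96, Gm7609 at -1.88, the endoplasmic reticulum protein Tmem214 at -1.79, the Mediator subunit Med25 at -1.78 and the transcriptional coactivator Myocd at -1.74. In all of these the 3 mimic-set arrays were below the 4 first-set arrays. The mimic-set means of Chmp4b (4.89), Myocd (4.95) and Gm7609 (5.05) lay near the detection threshold, like that of Prr7.

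Among genes higher in the mimic set, Diaph1, a formin that nucleates straight actin filaments, had the greatest difference. Its log2 signal was 8.08, 7.84, 7.94 and 7.78 in the first set and 9.64, 9.39 and 9.53 in the mimic set. With means of 7.91 ± 0.133 (SD, n = 4) and 9.52 ± 0.126 (SD, n = 3) this was 3.05-fold, and the mean rank was 63.1 in the first set and 90.7 in the mimic set, in percentile points. Epc2, a homologue of Enhancer of polycomb in a histone acetyltransferase complex, read 8.07, 7.91, 7.89 and 8.12 against 9.68, 9.45 and 9.38, or 2.84-fold. Both genes had sets that lay more than 1 log2 unit apart at their nearest arrays.

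Further genes among the 12 highest were Dmrtc1b of the doublesex family at 1.46, the GTPase-activating protein gene Arhgap10 at 1.44 and the chromatin remodelling subunit Baz1a at 1.41. Arhgap10 read 7.06, 7.09, 7.21 and 7.05 in the first set and 8.56, 8.50 and 8.57 in the mimic set. Shisa5, a protein of the endoplasmic reticulum, stood at 1.36, Dip2b at 1.34, the exon junction protein Rbm8a at 1.31 and Nploc4, a cofactor of the segregase p97, at 1.29. The ubiquitin ligase gene Hecw2 stood at 1.23 and Sufu, an inhibitor of hedgehog signalling, at 1.21. By a further probe detected on all 7 arrays Sufu stood at -0.05, Arhgap10 at 0.87 and Dip2b at 0.66.

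**Figure D2:**
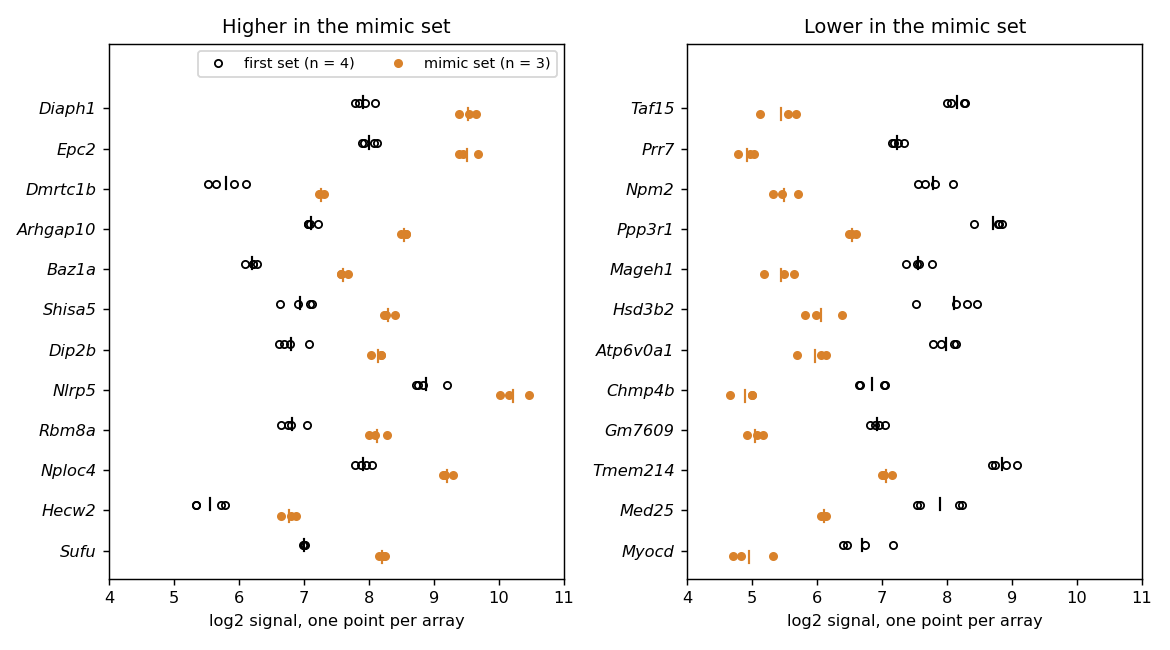
Log2 signal on each array for the 12 genes with the greatest difference in each direction, the left panel higher and the right panel lower in the mimic set. Open circles are the 4 first-set arrays, filled circles the 3 mimic-set arrays, and short bars the means. In none of the 24 genes do the sets overlap.

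Probes for the same gene often did not share these differences. Of 2052 genes with more than 1 compared probe, 949 had probes of both signs and 161 had probes whose differences lay 1 or more apart. Among the 37 higher genes 13 had a further compared probe, and 0 of these 13 were set apart by it. In 8 a further probe did not overlap in the same direction and in 4 one had the opposite sign. Among the 131 lower genes 33 had a further probe, and it was set apart the same way in 3 of them, Trak2, Inppl1 and Tmem214, non-overlapping the same way in 17 and opposite in sign in 12.

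The further probes of the higher genes had a median difference of 0.39, where the brightest probes of the same genes had 1.14. For the lower genes these medians were -0.20 and -1.24. The brightest probes were chosen for a large difference and the further ones were not, so the medians cannot be set against each other as equals. Inppl1, a lipid phosphatase of the SHIP family, stood at -1.27 and -1.14 by its 2 probes. Trak2, an adaptor that links mitochondria to kinesin, stood at -1.73 and -1.84 by 2 probes and at -0.26 by a dimmer one. Shisa5 stood at 1.36 by its brightest probe and at -0.43 and -0.52 by the others, Chmp4b at -1.96 and 0.17, and Med25 at -1.78, -0.06 and -0.12. Tmem214 stood at -1.79 by 1 probe, 0.70 by another of nearly equal brightness, and -1.04 by a dimmer one. With any of the 4 first-set arrays left out the second probe became the brightest, and the gene stood at 0.60 to 0.75. Taf15, Prr7, Npm2, Ppp3r1, Diaph1 and Epc2 each had 1 detected probe, and their values have no such check.

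**Figure D3:**
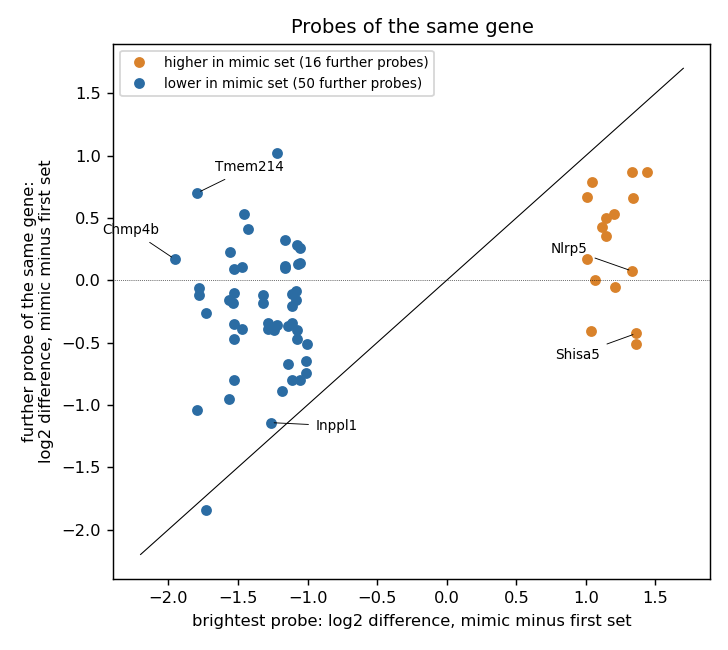
Difference between sets (log2, mimic set minus first set) of the brightest probe of each set-apart gene (x axis) against that of each further probe of the same gene detected on all 7 arrays (y axis), 16 probes for higher genes and 50 for lower genes. On the diagonal both probes would differ equally, and most points lie between it and 0 or beyond 0.

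The miR-15 question turns on genes that published work has linked to miR-15 or miR-16 as targets. Of 50 such genes 43 were on the array, 29 were compared, and 14 were left out because they were detected on none of the 7 arrays (6 genes) or on 1 to 6 of them (8 genes). Of the 29, 9 were lower in the mimic set without overlap (31.0%, against 25.5% of all genes), 6 were higher (20.7%, against 23.4%) and 14 overlapped. By the deposited values 7 were lower (24.1%, against 42.6% of all genes) and 7 higher (24.1%, against 29.2%). Lamc1 was the 1 member set apart, in the higher direction, and 0 were set apart in the lower direction. The median difference was -0.06, where all genes had -0.02, and it was 0.00 by the deposited values centred on each array, 0.04 with median scaling once its shift was taken out and 0.03 with every probe.

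Lamc1, which encodes the gamma-1 chain of laminin, read 6.85, 6.70, 6.47 and 6.64 in the first set and 7.88, 7.89 and 7.86 in the mimic set. It was 2.32-fold higher there (6.66 ± 0.157, SD, n = 4, and 7.88 ± 0.0115, SD, n = 3), and it had the greatest difference in either direction among the 29 compared targets. Pafah1b2, a subunit of platelet-activating factor acetylhydrolase, stood at 0.79, from 7.64 to 8.05 up to 8.62 to 8.77. In both genes the 2 sets did not overlap.

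Cadm1, a cell adhesion molecule of the immunoglobulin family, was the lowest of the compared targets. Its log2 signal was 8.04, 8.0, 7.55 and 7.72 in the first set and 6.69, 6.89 and 7.24 in the mimic set, a difference of -0.89. Its replicate spread was wide (SD 0.234 and 0.279), and the nearest arrays of the sets were 7.55 and 7.24. Luzp1, a leucine zipper protein, read 8.79 to 9.13 and 8.40 to 8.60, a difference of -0.49 by its brightest probe, with 0.49 and -0.29 by 2 others.

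The cell-cycle members, for which the family is best known in proliferating cells, stood on both sides. The following are named after their values were seen. The phosphatase Cdc25a differed by -0.24, the cyclin Ccnd3 by -0.31 and the inhibitory kinase Wee1 by -0.38, each without overlap. The cyclin Ccnd1 stood at 0.27 and the anaphase-promoting complex subunit Cdc27 at 0.22, also without overlap. Further probes gave -0.54 and 0.39 for Ccnd3, and 0.00 and 0.15 for Ccnd1. In Cre-positive oocytes Wee1 stood at 0.09 and Cdc27 at -0.10, opposite in sign. Cdc25a (-0.33), Ccnd3 (-0.19) and Ccnd1 (0.29) kept their sign there. Ccnd2 was not among the compared genes, being detected on 4 of 4 first-set and 2 of 3 mimic-set arrays. It read 6.29, 6.97, 6.57 and 6.26 in the first set and 5.00, 4.46 and 5.20 in the mimic set, so that the sets did not overlap. The difference of means, -1.63, includes 1 mimic-set array that was not above background. Cdk6, its kinase partner, was detected on 0 of 4 first-set and 3 of 3 mimic-set arrays, at 4.28 to 4.57 and 4.66 to 4.86, all near the detection threshold.

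**Figure D4:**
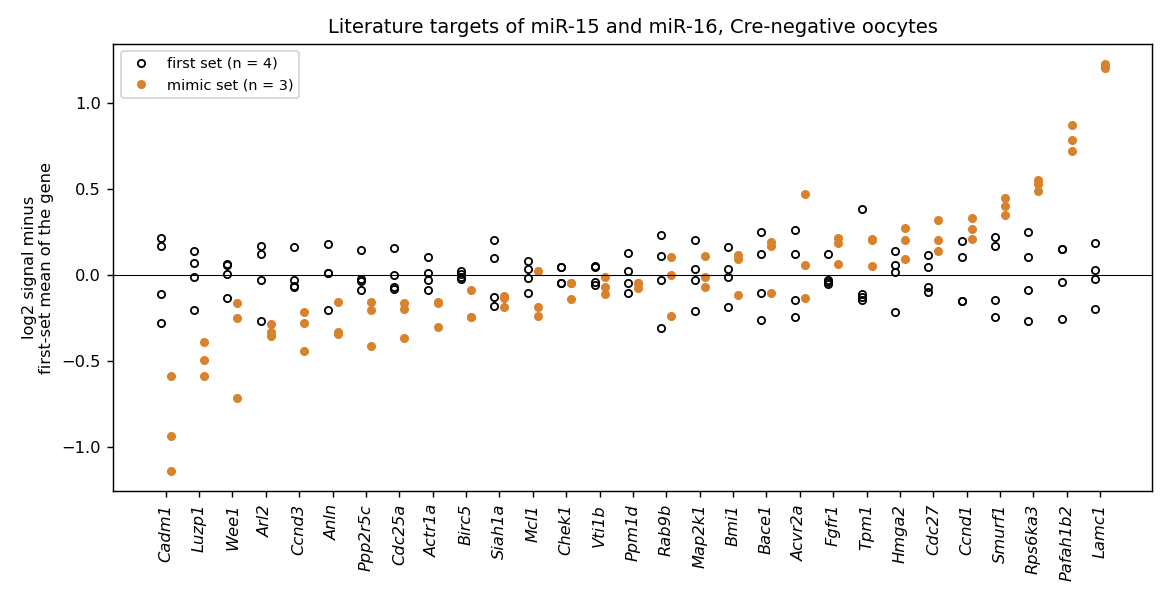
Log2 signal of the 29 compared miR-15/16 targets of the literature list on each array, as the difference from the first-set mean of the gene, ordered by the difference between sets. Open circles are the 4 first-set arrays and filled circles the 3 mimic-set arrays, running from Cadm1 at -0.89 to Lamc1 at 1.21.

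In the machinery on which a microRNA depends, separated genes lay on both sides. Of 35 compared genes of RNA silencing and mRNA decay, 21 overlapped, 8 were higher without overlap (22.9%, background 23.4%) and 6 lower (17.1%, background 25.5%), with a median of 0.12. Tarbp2, the double-stranded RNA-binding partner of Dicer, was the 1 member set apart. It read 8.78, 8.81, 8.81 and 8.90 in the first set and 7.58, 7.64 and 7.68 in the mimic set, a 2.29-fold lower signal. A further Tarbp2 probe, detected on 6 of the 7 arrays, gave 0.25.

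Xpo5, the exportin that carries microRNA precursors out of the nucleus, stood at -0.94, from 6.16 to 6.53 down to 5.33 to 5.39. Lin28a, which blocks maturation of let-7, stood at 0.48 and Ago3, an Argonaute paralog of Ago2, at 0.47, both without overlap. By the deposited values 16 of the silencing and decay genes were higher (45.7%, against 29.2% of all genes) and 11 lower (31.4%, against 42.6%). The list's median was above that of all genes under each scaling tried, by 0.06 to 0.26. Among 10 genes that endogenous siRNAs regulate in mouse oocytes, 5 were lower without overlap (50.0%, background 25.5%) and 3 higher (30.0%, background 23.4%). By the deposited values 4 were lower (40.0%, against 42.6% of all genes) and 4 higher (40.0%, against 29.2%). Ppp4r1, a regulatory subunit of protein phosphatase 4, was set apart at -1.14, while its other probes gave -0.37 and -0.68. Rangap1, the activator of the Ran GTPase, stood at -0.82, and at the other end Ankrd17 stood at 0.47 and Hdac1, a histone deacetylase, at 0.45.

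Genes that define the oocyte held more lower than higher members. Of 51 compared oocyte and maternal-effect genes 19 were lower without overlap (37.3%, background 25.5%) and 8 were higher (15.7%, background 23.4%). The median was -0.12, and against the median of all genes it lay between -0.11 and 0.14 under the scalings tried. It was positive by the deposited values centred on each array, where 18 were lower (35.3%, against 42.6% of all genes) and 17 higher (33.3%, against 29.2%). Besides Npm2, described above, Tle6, a component of the subcortical maternal complex that the embryo needs for its first divisions, was set apart at -1.23. Its signal was 11.90, 11.90, 11.75 and 12.11 in the first set and 10.52, 10.83 and 10.69 in the mimic set. In rank Tle6 moved by no more than -1.35 points on average, since it stood near the top of every array.

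Nlrp5, another member of that complex, was set apart in the opposite direction. It read 8.75, 9.20, 8.83 and 8.72 in the first set and 10.02, 10.46 and 10.16 in the mimic set, a 2.52-fold difference, while its other probes gave 0.87 and 0.07. Zp2, a zona pellucida glycoprotein to which sperm bind, stood at 0.72, from 7.11 to 7.66 up to 8.03 to 8.14. Its partners Zp1 and Zp3, named after their values were seen, stood at -0.43 and -0.41, also without overlap. The stored messages that are translated only when meiosis resumes, here called dormant maternal mRNAs, numbered 21, with a median of 0.11. Of these, 6 were higher without overlap (28.6%, background 23.4%) and 5 lower (23.8%, background 25.5%). By the deposited values 12 were higher (57.1%, against 29.2% of all genes) and 4 lower (19.05%, against 42.6%). Among the dormant mRNAs the spindle factor Tpx2 stood at -0.68, the kinase Mos at -0.64, the cyclin Ccne2 at 0.63 and the deadenylase Cnot6l at 0.45.

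The genes that hold or release meiotic arrest were compared because milrinone was present in both sets. Of 29 compared, 12 were lower without overlap (41.4%, background 25.5%) and 9 higher (31.0%, background 23.4%), with a median of 0.01. By the deposited values 13 were lower (44.8%, against 42.6% of all genes) and 10 higher (34.5%, against 29.2%). Gpr3, the Gs-coupled receptor whose signalling keeps cyclic AMP high and the oocyte arrested, was set apart. It read 8.18, 8.15, 8.15 and 8.30 in the first set and 6.67, 6.65 and 6.67 in the mimic set, a 2.89-fold lower signal with little spread within either set. Fzr1, which activates the anaphase-promoting complex during arrest, stood at -0.82, with -0.71 and -0.37 by its other probes.

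Pde3a, the oocyte phosphodiesterase that milrinone inhibits, stood on the other side at 0.57. Its signal was 7.18, 7.28, 7.19 and 7.18 in the first set and 7.71, 7.80 and 7.83 in the mimic set. Mastl, the Greatwall kinase that restrains a phosphatase opposing Cdk1, stood at 0.61. Of 35 spindle and checkpoint genes 9 were lower without overlap (25.7%, background 25.5%) and 4 higher (11.4%, background 23.4%), with a median of 0.01. By the deposited values, however, 14 were higher (40.0%, against 29.2% of all genes) and 9 lower (25.7%, against 42.6%). The centromere protein gene Cenpb was set apart at -1.67, from 6.39 to 6.59 down to 4.82 to 4.90, a level near the detection threshold. Tpx2 is also in this list, and at its other end the kinetochore gene Spc25 stood at 0.72 and the checkpoint gene Bub3 at 0.62.

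Responses to damage, stress and foreign RNA were examined since oocytes had been injected. Of 28 genes of the p53 and DNA damage response on the array, 20 were compared. Cdkn1a, Bbc3, Pmaip1 and Fas were among those not detected on all 7 arrays. Of the 20, 8 were higher without overlap (40.0%, background 23.4%) and 0 lower (background 25.5%). The median of the list was 0.23, and in Cre-positive oocytes 0.08, where all genes had -0.0047. The Cre-negative median was above the one of all genes by 0.13 to 0.35 under each scaling tried. By the deposited values centred on each array, however, 10 were higher (50.0%, against 29.2% of all genes) and 7 lower (35.0%, against 42.6%) without overlap. Trp53inp1, a p53 target that promotes cell death and autophagy, was set apart at 1.01 (9.04 to 9.70 against 10.24 to 10.37), with 0.67 by its other probe. Gadd45a, a damage-induced growth arrest gene, stood at 0.89 and 0.74 by its probes. Apaf1 and Chek2 stood at -0.26 each with overlapping arrays, but their other probes were opposite in sign. These gave 0.25 for Apaf1, and 0.09 and 0.25 for Chek2, the latter 2 detected on 5 and 3 of the 7 arrays. The summed signals of the granulosa, theca and blood markers, given above, overlapped between sets. Bmpr1b and Esr2, which were not in the granulosa sum, were higher in the mimic set without overlap. For Esr2 this held for its brightest probe, and its other probe gave -0.35. The part of such cells in the values of the p53 list was not tested.

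Of 32 genes of the interferon and double-stranded RNA response on the array, 13 were compared. Isg15, Ifit1, Mx1, Rsad2 and Irf7 were among those not detected on all 7 arrays. The 13 had 4 lower (30.8%, background 25.5%) and 2 higher (15.4%, background 23.4%) without overlap, with a median of 0.07. By the deposited values 8 were lower (61.5%, against 42.6% of all genes) and 2 higher (15.4%, against 29.2%). Irf3, the transcription factor that double-stranded RNA sensors activate, stood at -0.56 by its brightest probe and at -0.05 and 0.04 by others. Bst2, an interferon-induced membrane protein, stood at -0.49, Stat2, a transducer of interferon signals, at 0.38 and the oligoadenylate synthetase Oas1g at 0.29. The list's median lay from -0.31 to 0.10 against that of all genes under the scalings tried. Stress and unfolded protein response genes numbered 16, with 5 higher (31.25%, background 23.4%), 2 lower (12.5%, background 25.5%) and a median of 0.02. By the deposited values 10 were higher (62.5%, against 29.2% of all genes) and 2 lower (12.5%, against 42.6%). The heat shock genes Dnajb1 and Hsp90aa1 stood at 0.50 and 0.34, and Hspb1 and Chac1 at -0.44 and -0.36.

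Ribosomal and respiratory chain genes leaned to lower signal in the mimic set after joint quantile normalization, and did not by the deposited values. Of 53 cytosolic ribosomal protein genes 25 were lower without overlap (47.2%, background 25.5%) and 6 higher (11.3%, background 23.4%), with a median of -0.22. By the deposited values centred on each array, however, 13 were lower (24.5%, against 42.6% of all genes) and 13 higher (24.5%, against 29.2%). Rps27, a protein of the small subunit, was set apart at -1.01, from 7.93 to 8.11 down to 6.85 to 7.23. Rplp1, of the large-subunit stalk, stood at -0.90, while Rpl4 and Rplp0 stood at 0.67 and 0.59, the latter with -0.11 by its other probe.

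Of 69 genes of the mitochondrial respiratory chain 28 were lower without overlap (40.6%, background 25.5%) and 9 higher (13.04%, background 23.4%), with a median of -0.21. By the deposited values centred on each array 22 were lower (31.9%, against 42.6% of all genes) and 23 higher (33.3%, against 29.2%). Ndufc1 of complex I was set apart at -1.01 and Atp5l of the ATP synthase stood at -0.98, with Ndufa9 at 0.58 and Ndufb5 at 0.53. Of 9 housekeeping controls 5 were lower without overlap (55.6%, background 25.5%) and 2 higher (22.2%, background 23.4%). By the deposited values 2 were lower (22.2%, against 42.6% of all genes) and 2 higher (22.2%, against 29.2%). Among the lower were Gapdh (6.26 to 6.62 against 5.79 to 6.03) and Tubb5 at -0.51, with -0.56 and 0.46 by their other probes. The Tubb5 probe at 0.46 was detected on 4 of the 7 arrays. Ywhaz stood at 0.52, but at -0.28 by a probe of similar brightness. Hprt stood at 0.28, with 0.39 and 0.52 by its other probes. The control list lay from -0.38 to -0.01 against all genes under the scalings tried.

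Translation and protein turnover gave counts that turned on the scaling. Among 29 translation initiation factors 8 were higher (27.6%, background 23.4%) and 7 lower (24.1%, background 25.5%) without overlap (median 0.05). By the deposited values 15 were higher (51.7%, against 29.2% of all genes) and 2 lower (6.9%, against 42.6%). With median scaling once its shift was taken out, 12 were higher (41.4%, against 28.7%) and 2 lower (6.9%, against 28.8%). The initiation factors ran from Eif3a at -0.54 to Eif2b5, the catalytic subunit of eIF2B, at 0.65. Other probes gave 0.25 and -0.95 for Eif3a, and 0.58 and 0.27 for Eif2b5. Of the 30 proteasome genes 3 were higher (10%, background 23.4%) and 9 lower (30.0%, background 25.5%), with a median of -0.05. By the deposited values 12 were higher (40.0%, against 29.2% of all genes) and 4 lower (13.33%, against 42.6%). With centred median scaling 10 were higher (33.3%, against 28.7%) and 5 lower (16.67%, against 28.8%). The 13 genes of embryonic genome activation had 3 higher (23.1%, background 23.4%) and 3 lower (23.1%, background 25.5%), with a median of -0.02. By the deposited values 5 were higher (38.5%, against 29.2% of all genes) and 7 lower (53.8%, against 42.6%). Only 4 granulosa and cumulus genes were compared. Esr2, the beta estrogen receptor, stood at 0.77, but at -0.35 by its other probe. The kit ligand gene Kitl stood at 0.74, and at 0.03 by a probe detected on 2 of the 7 arrays. Bmpr1b stood at 0.33 and Nr5a2 at -0.23.

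**Figure D5:**
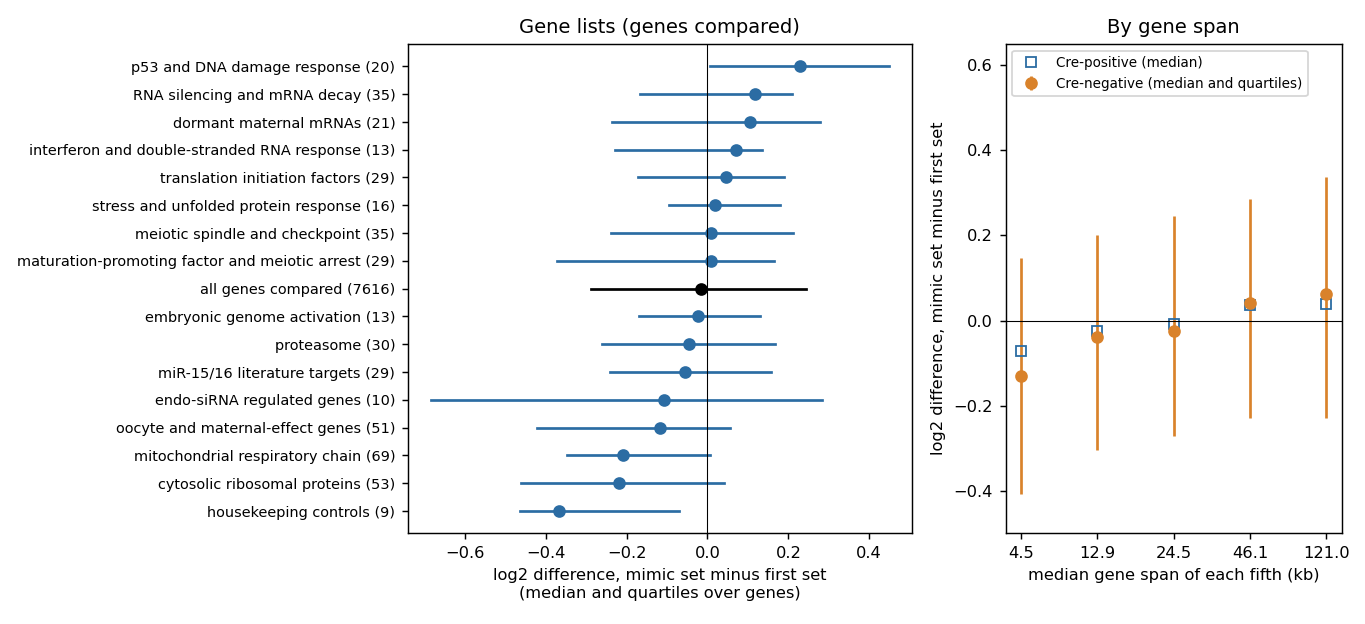
Left, median (point) and quartiles (line) over genes of the difference between sets (log2, mimic set minus first set) for each list with at least 9 genes compared, with their number in brackets and all 7616 genes in black. Right, the same difference by 5 groups of equal size in gene span, from a median span of 4.5 kb to one of 121.0 kb, with orange points for Cre-negative oocytes (median and quartiles) and open squares for Cre-positive oocytes (median).

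Longer genes stood higher in the mimic set than shorter ones. Over 7611 genes with a span in RefSeq (GRCm38.p6), the length of the gene from its start to its end had a Spearman correlation with the difference of 0.159, which describes genes that share 7 arrays. It was between 0.0858 and 0.159 under the scalings tried. In 5 groups of equal size, from the shortest genes to the longest, the median difference was -0.13, -0.04, -0.02, 0.04 and 0.06. In the shortest group 34.1% of genes were lower without overlap and 17.1% higher, and in the longest 19.4% and 29.6%. Genes set apart and higher had a median span of 47.6 kb, those lower 17.7 kb, and all genes 24.4 kb. The ribosomal and respiratory chain lists had median spans of 3.18 and 7.28 kb. Among other lists of short genes, the housekeeping controls (4.86 kb, median difference -0.37) also leaned lower. The stress list (4.92 kb, 0.02) and that of embryonic genome activation (5.34 kb, -0.02) did not.

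The base composition of promoters showed no such order. For 6287 of the 7616 genes (82.5%) RefSeq gave 300 bases around the start, and their GC content had a Spearman correlation with the difference of 0.01. The median GC content was 60.3% for genes higher in the mimic set, 60.0% for those lower and 60.7% for all.

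The Cre-positive oocytes of the same tables showed much the same differences between sets. Of the 37 higher genes 36 did not overlap in the same direction in Cre-positive oocytes, where 19.3% of all genes did, and of the 131 lower genes 129 did, where 20.3% did. Taf15 stood at -2.70 in Cre-negative and -2.39 in Cre-positive oocytes, Npm2 at -2.28 and -2.07, Diaph1 at 1.61 and 1.7, Gpr3 at -1.53 and -1.57 and Lamc1 at 1.21 and 1.08. The median difference of the literature targets was -0.06 in both. Both Cre states come from the same 2 tables, so these arrays repeat the split of mimic and table together.

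What the 2 Cre states do not share was tested as the difference of their set differences, with limma over all 14 arrays. No gene of 7616 passed (0.0%), and 229 had an unadjusted p under 0.05. The smallest p values in the positive direction belonged to the zinc finger gene Zfp345, at -0.15 in Cre-negative and -0.86 in Cre-positive oocytes (0.71 ± 0.161 SE, limma adjusted p = 1.0), and to Vamp3, a vesicle SNARE, at -0.29 and -1.25. In the negative direction they belonged to Ido2, a tryptophan-degrading enzyme, at 0.31 and 1.11 (-0.79 ± 0.191 SE, limma adjusted p = 1.0), and to the aldolase gene Dera, at -0.07 and 0.62. Spam1, a hyaluronidase known from sperm, was set apart in Cre-negative oocytes at 1.2 and stood at 0.53 in Cre-positive ones, a difference that did not pass. With median scaling 1 gene passed, Vamp3 by another of its probes, at 1.45 (limma adjusted p = 0.00334).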

How the data were processed

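Per the file headers, the deposited raw tables, 1 for each set, list for every probe the signal intensity on each array with its detection p-value. The authors' deposited normalized tables hold log2 signal. They equalled quantile normalization of log2 raw signal within each set to within 4.97e-14, and the series value table equalled them to within 5.00e-09. The scanner and the summarization of beads are not stated in the sources used here.

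Here the raw intensity was corrected for background (nec in limma 3.58.1, R 4.3.3, detection p-values, offset 16), log2 transformed and quantile normalized over all 14 arrays. The offset keeps differences of dim probes small. Symbols came from the platform annotation: 23978 of 25697 probes had 1 symbol, of which 23962 matched RefSeq (GRCm38.p6) by gene identifier. Sequences and gene spans are RefSeq's. The lists, members and tests were chosen with earlier results of these data known, so nothing here is independent support for them.

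Named genes were the 12 greatest differences in each direction among set-apart genes that also did not overlap in rank, the 2 greatest in each direction of each list, Ago2, and for the difference between Cre states the smallest p in each direction. Any others were named after their values were seen. The difference between Cre states used lmFit and eBayes, two-sided, with Benjamini-Hochberg adjustment over 7616 genes. The steps were tested on simulated data. The number of arrays limits the precision.

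Replicate numbers pair Cre-negative with Cre-positive samples in name. The deviations of same-numbered samples correlated at -0.07 to 0.00 in the first set and 0.04 to 0.24 in the mimic set, so the numbers were not taken as pairs. The alternatives were other background steps, scalings, filters, probe rules and sizes, ranks, leaving out each array, a replicate block, and eBayes with trend and robust settings. Figures were drawn with matplotlib 3.10.9 in Python 3.11.15.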

Additional observations from a re-analysis of the deposited data

Results flagged for a closer look

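In the first set, 3 of 109 values examined had 1 array far from the other 3, by a gap whose share of the whole range exceeded Dixon's critical value at 95%. Chance alone is set to give such a gap in about 5% of groups of 4. For Ago3 the share was 0.866, with replicate 4 at 6.56 and the others at 6.98 to 7.04. For Pde3a it was 0.83, with replicate 2 at 7.28 and the others at 7.18 to 7.19. For Rchy1, among the probes of highest signal, it was 1.0, with replicate 4 at 11.94 and the others all at 12.11, a value that quantile normalization can give to several arrays. None of these genes was set apart between the sets.

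Outside the genes compared, 142 of 25697 probes (0.553%) were detected on all 3 mimic-set arrays and on none of the 4 first-set arrays, and 79 (0.307%) showed the reverse. Of these, 131 and 76 carried 1 gene symbol. Since 1 side is not above background, a difference is only a bound, the mean of the detected arrays against the lowest detected signal of the others. Tarsl2 and the olfactory receptor gene Olfr1104 were each at least 1.57-fold higher in the mimic set, Aatk at least 1.52-fold and Mex3b at least 1.5-fold. Pdlim7, a PDZ and LIM domain protein, was at least 2.72-fold lower in the mimic set, Ube3b, a ubiquitin ligase, at least 2.28-fold, Gnb2, a G-protein beta subunit, at least 1.79-fold and Foxo3, a transcription factor that keeps primordial follicles dormant, at least 1.75-fold. They are named for having the greatest bounds, so after their values were known.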

How the results depend on the processing

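Counts of genes set apart moved with the processing. Higher and lower genes, 37 and 131, numbered 5 and 27 without background correction, 146 and 294 with an offset of 1, 3653 and 13 with median scaling, 18 and 30 by the deposited values centred on each array, 746 and 725 by rank, and 690 and 904 at a difference of 0.5. With every probe 74 were higher. With median scaling centred on the median difference, an alternative chosen after seeing the data, they numbered 65 and 320. With 1 array left out they ranged over 36 to 50 and 116 to 147. The median of the literature targets, -0.06, was 1.01 with median scaling, 0.0043 by the deposited values, 0.031 with every probe, 0.035 with median scaling centred, and -0.08 to -0.04 with 1 array left out. Counts follow the offset and the scale by construction, and the cause of the other moves was not tested.

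Of the 107 named genes, 34 were set apart, and those kept their sign except in these cases. Rps27 was 0.12 with median scaling, which moves all genes together by 0.98, and -0.86 with that shift taken out. Tmem214 was 0.75, 0.70, 0.75 and 0.60 without first-set replicates 1, 2, 3 and 4, because another of its probes then became the brightest, and lowest at -1.83 without mimic-set replicate 2. The difference between Cre states gave 0 genes in all 14 fits with 1 array left out and 1 with median scaling.

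With the replicate block 0 genes passed, as without it, and 234 had an unadjusted p under 0.05. No paired analysis was possible because the comparison of the sets comes from no test and its 2 sets were not prepared as pairs in the labels. Signal over background limits the genes near the detection threshold.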
